A study of Mus musculus with 20 samples.

Results

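10 genes of Toll-like receptor signaling were followed in bulk RNA-seq of mouse bone marrow neutrophils: the endosomal receptors Tlr7, Tlr9 and Tlr13, the surface receptors Tlr2 and Tlr4 with the co-receptor Cd14, and the shared machinery Unc93b1, Myd88, Irak4 and Irf5. They were chosen by name, as the receptor of the drug used in the study and its nearest relatives, and are 10 of the 24421 genes in the count tables. All 10 passed the filter on low counts, which left 14030 genes. The 20 libraries, each from 1 mouse, formed 4 groups of 5. WT mice were C57BL/6J, purchased and without Cre. Bmal1 Mye-/- mice carried floxed Bmal1 (Arntl in the tables), a core gene of the circadian clock, and Cre inserted at Lyz2, so that the deletion takes place in myeloid cells. Cre and the separate origin of the colonies therefore cannot be told apart from the loss of Bmal1. In either genotype, 5 mice were untreated and 5 received imiquimod (IMQ) cream at 5% on both ears, 3 times per week for 6 weeks, from an age of 8 to 10 weeks. The ages of the untreated mice are not given in the sources used here. All mice were female, and neutrophils were isolated by negative selection and lysed at once. The design asks what IMQ does to these genes in each genotype, and what the loss of Bmal1 does in each condition.

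Toll-like receptors sense microbial molecules. TLR7, TLR9 and TLR13 sit in the endosome and detect single-stranded RNA, CpG DNA and bacterial ribosomal RNA, and UNC93B1 is the chaperone that carries them there. TLR2 and TLR4 detect bacterial lipoproteins and lipopolysaccharide at the surface, where CD14 hands ligands to them. All of these receptors signal through the adaptor MYD88 and the kinase IRAK4, and IRF5 is among the transcription factors they activate. IMQ is an agonist of TLR7.

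Promoter sequence of the members that were lower in every IMQ-treated Bmal1 Mye-/- library than in any untreated one (Tlr2, Tlr13 and Irak4), and of Tlr9, which shares a motif with Tlr13, is shown so that the letters near their starts can be read beside the counts. The RefSeq table of build GRCm38.p6 held 6 of the 10 genes (Tlr9, Tlr13, Tlr2, Myd88, Irak4 and Irf5). Each stretch lies within the 250 bases before the annotated start, 5′ to 3′ on the gene's strand, and ends before the first exon base of the gene in GENCODE. Capitals mark matches to the motifs searched.
Tlr2 (chr3:83841768-83841858, minus strand): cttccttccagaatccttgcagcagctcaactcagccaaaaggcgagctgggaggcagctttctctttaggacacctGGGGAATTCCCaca
Tlr13 (chrX:106143025-106143203, plus strand): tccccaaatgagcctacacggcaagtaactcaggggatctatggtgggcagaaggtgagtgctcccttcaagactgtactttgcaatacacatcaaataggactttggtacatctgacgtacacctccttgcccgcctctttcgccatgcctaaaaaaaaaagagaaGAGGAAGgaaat
Irak4 (chr15:94543410-94543642, plus strand): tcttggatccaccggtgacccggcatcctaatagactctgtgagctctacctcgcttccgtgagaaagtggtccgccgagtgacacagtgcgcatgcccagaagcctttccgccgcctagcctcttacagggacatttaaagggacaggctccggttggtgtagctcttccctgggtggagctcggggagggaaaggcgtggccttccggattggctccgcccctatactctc
Tlr9 (chr9:106222348-106222597, plus strand): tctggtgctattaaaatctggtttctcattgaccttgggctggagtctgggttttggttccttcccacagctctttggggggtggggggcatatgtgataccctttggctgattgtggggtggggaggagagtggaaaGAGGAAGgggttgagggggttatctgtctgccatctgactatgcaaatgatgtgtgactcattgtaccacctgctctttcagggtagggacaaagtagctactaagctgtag
In all, 4 motifs were searched on both strands over the 250 bases. The core of PU.1, a myeloid transcription factor (GAGGAAG), was found in Tlr9 and Tlr13, 112 and 83 bases before the start, and in 10.6% of 32851 promoters. The E-box CACGTG, the letters that BMAL1 with CLOCK binds, was found in 0 of the 6 windows and in 6.02% of promoters. The core of the interferon-stimulated response element (GAAA, any 2 bases, GAAA) was found in Myd88, 40 bases before the start, and in 2.98% of promoters. The kappa-B consensus of NF-kB, searched in a wide form that was chosen after the sequences were seen, was found in Tlr2, as 2 overlapping matches with the nearer 172 bases before the start, and in 7.25% of promoters. No window held matches to more than 1 of the motifs, the stretch of Irak4 holds none, and these matches describe letters only.

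Between 30782166 and 92613500 reads were counted on genes in a library (median 66094896). Levels are CPM (counts per total, with each library total corrected by its TMM factor). Arntl was low throughout, at a mean of 1.35 CPM in untreated WT, 0.721 in untreated Bmal1 Mye-/-, 1.11 in IMQ-treated WT and 0.703 in IMQ-treated Bmal1 Mye-/- libraries. The groups overlapped, and the counts include exons outside the floxed part, so they check the labels weakly. Lyz2, at which Cre was inserted, was 84.5-fold lower in untreated and 81.9-fold lower in IMQ-treated Bmal1 Mye-/- neutrophils, with no overlap. The 11 neutrophil markers summed to between 70370 and 149900 CPM in a library. A total of 4 IMQ-treated libraries stood apart. Bmal1 Mye-/- replicate 1 had the lowest neutrophil sum and the highest sum of 8 monocyte markers, WT replicate 3 had the next lowest neutrophil sum (98320) and the farthest value on the first principal component (92.5), and WT replicate 5 (-37.1 on that component) and Bmal1 Mye-/- replicate 2 (-10.7) lay within the range of the untreated libraries (-57.0 to -7.63). Values without them are given beside many of the results that moved, and ranges over all repeats without 1 library at the end.

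In untreated WT neutrophils Unc93b1, Myd88, Tlr13 and Tlr2 were the most abundant of these transcripts, and Tlr7 and Tlr9 the least. CPM per kb of exon, the scale used between genes, was 113.5 ± 10 (SD, n = 5) for Unc93b1, 78.7 ± 6.03 for Myd88, 67.7 ± 14.6 for Tlr13 and 53.9 ± 17.04 for Tlr2. It was 27.0 ± 7.32 for Cd14, 21.6 ± 3.77 for Irak4, 17.04 ± 2.38 for Irf5, 10.3 ± 2.71 for Tlr4, 6.77 ± 1.55 for Tlr7 and 0.412 ± 0.0933 for Tlr9. In this order the ranges of neighbours did not overlap between Unc93b1 and Myd88, Tlr2 and Cd14, Irf5 and Tlr4, or Tlr7 and Tlr9, while the other neighbours overlapped. By level per kb, Unc93b1 stood at the 97.3rd percentile of 13510 tested genes with an exon length, Tlr7 at the 68.1st and Tlr9 at the 26.3rd. Tlr7 was counted with 832 to 2839 reads per library. In the order of mean levels among the 10 genes, Cd14 ranked 5 in both untreated groups, 3 in IMQ-treated WT (81.8 ± 57.2) and 1 in IMQ-treated Bmal1 Mye-/- neutrophils (104.4 ± 59.7).

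**Figure D1:**
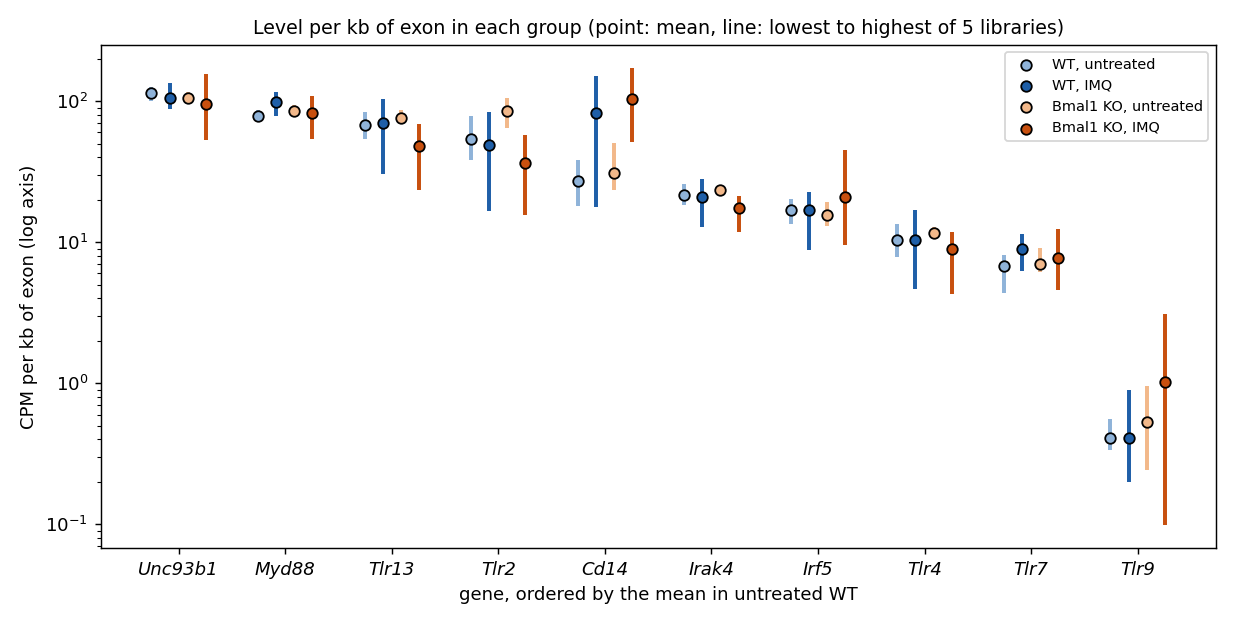
CPM per kb of exon of the 10 genes (log axis) in the 4 groups (Bmal1 KO in the plots is Bmal1 Mye-/-), with points for means and lines from the lowest to the highest of 5 libraries. Cd14 moved from rank 5 in both untreated groups to rank 1 in IMQ-treated Bmal1 Mye-/- neutrophils, and Tlr9 was the lowest in every group.

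Among the endosomal receptors, none passed the test in any comparison, and only Tlr13 separated any of the groups compared. Tlr7 (chrX:167304929-167330558, GRCm38, minus strand), the receptor of IMQ, was at 29.9, 25.1, 17.9, 33.3 and 32.2 CPM in untreated WT replicates 1 to 5 and at 46.5, 31.3, 40.3, 38.1 and 25.7 in IMQ-treated WT. Bmal1 Mye-/- neutrophils had 26.6, 26.3, 28.0, 36.9 and 25.0 CPM untreated and 18.8, 50.3, 20.2, 31.2 and 37.4 with IMQ. The groups overlapped throughout, and the IMQ-treated Bmal1 Mye-/- libraries reached both lower and higher than the untreated ones. The log2 fold change with IMQ was 0.40 (SE 0.24, edgeR adjusted p = 0.344) in WT and 0.14 (SE 0.24, adjusted p = 0.676) in Bmal1 Mye-/-, and the difference between these was -0.25 (SE 0.34, adjusted p = 0.746). Without Bmal1 Mye-/- replicate 2 with IMQ, the value in Bmal1 Mye-/- changed sign, to -0.06 (SE 0.22, adjusted p = 0.843). In bulk RNA, fewer cells of a type and less RNA per cell cannot be told apart.

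**Figure D2:**
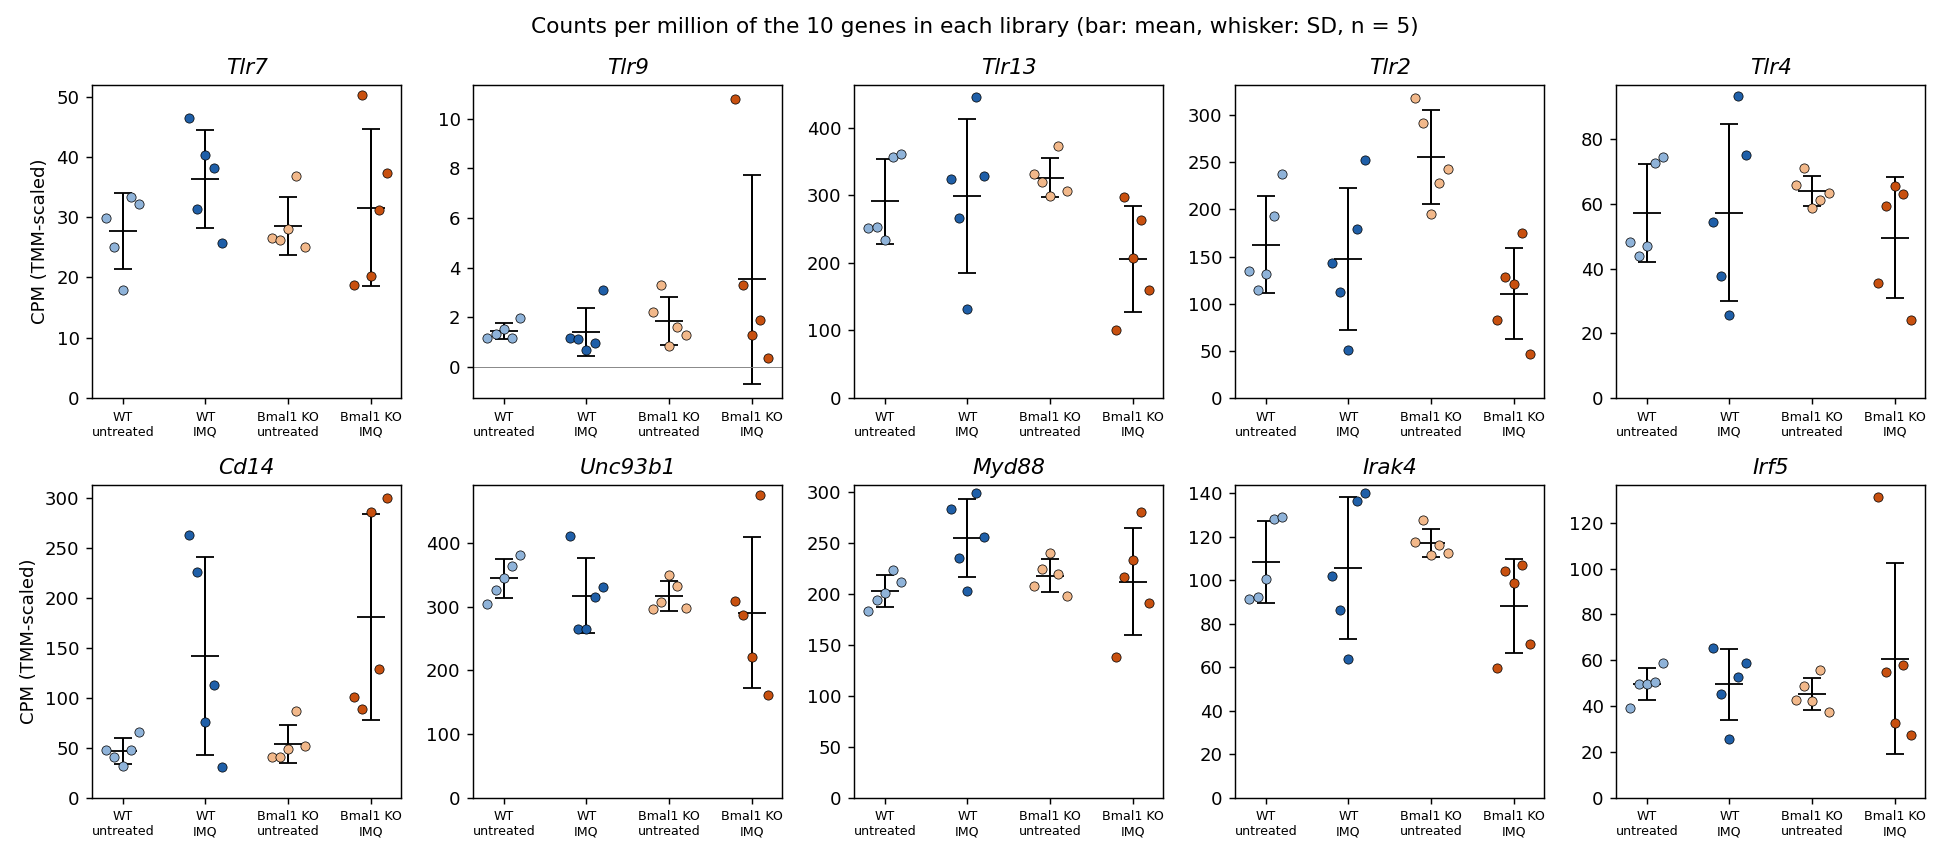
CPM of each gene by library (points), with the group mean and SD (n = 5), in the 4 groups. In Bmal1 Mye-/- neutrophils, Tlr2, Tlr13 and Irak4 lay lower and Cd14 higher in all 5 IMQ-treated libraries than in any untreated one. The margins of Tlr13 and Cd14 were narrow.

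Tlr13 (chrX:106143204-106160493, plus strand) was at 251, 253, 233, 357 and 362 CPM in untreated WT and at 324, 267, 131, 446 and 328 in IMQ-treated WT. In Bmal1 Mye-/- neutrophils it was at 331, 320, 300, 372 and 306 CPM untreated and at 101, 297, 206, 263 and 160 with IMQ. The latter groups did not overlap, by a narrow margin (297 against 300 CPM), while WT spread widely with IMQ. The log2 fold change with IMQ was -0.67 (SE 0.27, adjusted p = 0.0789) in Bmal1 Mye-/- and 0.04 (SE 0.27, adjusted p = 0.952) in WT, and their difference was -0.70 (SE 0.38, adjusted p = 0.640). Between IMQ-treated genotypes it was -0.54 (SE 0.27, adjusted p = 0.258). Without WT replicate 3, the lowest of the IMQ-treated WT libraries at 131 CPM, that last value became -0.73 (SE 0.24, adjusted p = 0.0384), and the fall with IMQ in Bmal1 Mye-/- also passed the test without that library or without Bmal1 Mye-/- replicate 2 with IMQ (adjusted p = 0.0344 and 0.0414). Scaling by library size alone also put that fall past the threshold (adjusted p = 0.0476). Leaving out Bmal1 Mye-/- replicate 1 or 5 with IMQ made the fall smaller, at -0.48 (SE 0.25, adjusted p = 0.192) and -0.59 (SE 0.29, adjusted p = 0.165). Without that replicate 1, the value between IMQ-treated genotypes was -0.36 (SE 0.25, adjusted p = 0.645).

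Tlr9 (chr9:106222598-106226883, plus strand) was the lowest of the members, with 25 to 832 reads per library. It was at 1.17, 1.33, 1.52, 1.18 and 1.96 CPM in untreated WT, 2.21, 3.30, 0.842, 1.63 and 1.28 in untreated Bmal1 Mye-/-, and 1.19, 1.13, 0.700, 0.951 and 3.10 in IMQ-treated WT. In IMQ-treated Bmal1 Mye-/- neutrophils it was at 10.8, 3.31, 1.28, 1.90 and 0.342 CPM. A single library, replicate 1, carried the high mean of this last group, and the other 4 overlapped with all groups. The log2 fold change with IMQ in Bmal1 Mye-/- was 0.92 (SE 0.62, adjusted p = 0.272) and became -0.13 (SE 0.51, adjusted p = 0.882) without that library. Between IMQ-treated genotypes it went from 1.32 (SE 0.62, adjusted p = 0.249) to 0.27 (SE 0.52, adjusted p = 0.856) without it.

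At the surface, Cd14 was higher and Tlr2 lower with IMQ in Bmal1 Mye-/- neutrophils, and these were the members past the threshold in that comparison. Cd14 (chr18:36725067-36726798, minus strand) was at 47.9, 40.9, 31.5, 47.7 and 66.0 CPM in untreated WT and at 263, 226, 75.6, 113 and 30.8 with IMQ. In Bmal1 Mye-/- neutrophils it was at 40.6, 40.8, 48.7, 87.1 and 52.2 CPM untreated and at 101, 89.2, 286, 129 and 299.9 with IMQ. All 5 IMQ-treated Bmal1 Mye-/- libraries lay above all untreated ones, by a narrow margin (89.2 against 87.1 CPM). In WT 4 of 5 IMQ-treated libraries did, and replicate 5, at 30.8 CPM, lay below all untreated ones. The rise was 3.36-fold in means in Bmal1 Mye-/- (log2 fold change 1.75, SE 0.46, adjusted p = 0.0152) and 3.03-fold in WT (1.60, SE 0.46, adjusted p = 0.0553), and the difference between genotypes in this response was 0.15 (SE 0.64, adjusted p = 0.928). A call in one genotype and none in the other is thus no difference between them by the test of that difference. In WT, Cd14 passed the threshold without WT replicate 5 with IMQ (log2 fold change 1.85, adjusted p = 0.00674), and also without Bmal1 Mye-/- replicate 1 or 5 with IMQ, which enter that test through the shared dispersion. Without WT replicate 1 with IMQ, the library with the most Cd14 of its group, the WT value was 1.25 (SE 0.45, adjusted p = 0.160).

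Tlr2 (chr3:83836272-83841767, minus strand) was at 134, 115, 132, 193 and 238 CPM in untreated WT and at 143, 113, 50.4, 179 and 252 with IMQ, groups that overlapped, with 1 IMQ-treated library above and 2 below all untreated ones. In untreated Bmal1 Mye-/- neutrophils it was at 318, 292, 195, 228 and 242 CPM, higher than WT in 23 of 25 pairs of libraries, and with IMQ at 82.4, 128, 121, 174 and 47.2. Every IMQ-treated Bmal1 Mye-/- library lay below every untreated one. The log2 fold change was -1.21 (SE 0.35, adjusted p = 0.0222) in Bmal1 Mye-/- and -0.14 (SE 0.35, adjusted p = 0.860) in WT, and the difference between these had an unadjusted p = 0.0427 and an adjusted p = 0.640 (-1.07, SE 0.49). Between untreated genotypes, the log2 fold change of 0.65 (SE 0.35) did not pass (adjusted p = 1). The call in Bmal1 Mye-/- was lost without untreated replicate 1 or without IMQ-treated replicate 1 or 5, with adjusted p up to 0.0569.

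Tlr4 (chr4:66827584-66930284, plus strand) differed little. It was at 48.2, 43.9, 47.0, 72.7 and 74.5 CPM in untreated WT and at 54.5, 37.9, 25.8, 93.3 and 75.3 with IMQ. Bmal1 Mye-/- neutrophils had 65.8, 71.0, 58.9, 61.3 and 63.4 CPM untreated and 35.5, 59.5, 65.6, 63.2 and 24.0 with IMQ. The groups overlapped, with 2 IMQ-treated Bmal1 Mye-/- libraries below all untreated ones, and the log2 fold change there was -0.37 (SE 0.30, adjusted p = 0.363).

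Of the shared machinery, no gene passed the test in any of the 5 comparisons, the test of the difference between genotypes included. Unc93b1 (chr19:3935186-3949340, plus strand) was the steadiest between group means, at 344 ± 30.3 CPM in untreated WT, 317 ± 23.5 in untreated Bmal1 Mye-/-, 317 ± 59.6 in IMQ-treated WT and 291 ± 119 in IMQ-treated Bmal1 Mye-/-. Its libraries in this last group ran from 161 to 475 CPM, wider than in the others. Its log2 fold changes in the 4 pairwise comparisons were all between -0.13 and -0.12 (SE 0.20).

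Myd88 (chr9:119335934-119341411, minus strand) was at 183, 195, 201, 223 and 212 CPM in untreated WT and at 283, 235, 202, 299 and 256 with IMQ, so 4 of 5 IMQ-treated WT libraries lay above all untreated ones. Bmal1 Mye-/- neutrophils had 208, 224, 240, 220 and 198 CPM untreated and 138, 217, 233, 280 and 192 with IMQ, which overlapped. The log2 fold change with IMQ was 0.33 (SE 0.14, adjusted p = 0.175) in WT and -0.04 (SE 0.14, adjusted p = 0.851) in Bmal1 Mye-/-, with a difference of -0.37 (SE 0.20, adjusted p = 0.640). Without Bmal1 Mye-/- replicate 1 with IMQ, the value in Bmal1 Mye-/- was 0.09 (SE 0.12, adjusted p = 0.620).

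Irak4 (chr15:94543643-94581815, plus strand) was at 117, 128, 112, 116 and 113 CPM in untreated Bmal1 Mye-/- neutrophils and at 59.7, 104, 98.8, 107 and 70.8 with IMQ, without overlap. In WT it was at 91.5, 92.1, 101, 128 and 129 CPM untreated and at 102, 86.4, 63.9, 136 and 140 with IMQ, and these groups overlapped, with 2 IMQ-treated libraries above and 2 below all untreated ones. The log2 fold change in Bmal1 Mye-/- was -0.41 (SE 0.19) and its adjusted p of 0.123 missed the threshold. Irf5 (chr6:29526625-29541871, plus strand) was at 39.3 to 58.8 CPM in untreated WT, 37.6 to 55.8 in untreated Bmal1 Mye-/- and 25.4 to 65.5 in IMQ-treated WT. In IMQ-treated Bmal1 Mye-/- neutrophils it was at 131, 54.7, 32.6, 57.9 and 27.6 CPM. As for Tlr9, replicate 1 stood far above the other 4, and without it the log2 fold change with IMQ went from 0.42 (SE 0.32, adjusted p = 0.328) to -0.06 (SE 0.24, adjusted p = 0.884).

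With IMQ, 2 of the 10 genes passed the threshold in Bmal1 Mye-/- neutrophils (Cd14 higher, Tlr2 lower), where 23.5% of all genes tested did, 14.4% higher and 9.04% lower. The share of members is near that background. Of the 10, 4 did not overlap between these groups, 1 higher and 3 lower, against 20.1% of all genes. In WT, edgeR called 0 of 10 (3.95% of all genes, 2.34% higher and 1.6% lower), limma 0 and DESeq2 1 (Cd14), and 2 members, Cd14 and Myd88, had an unadjusted p under 0.05, as 22.3% of genes did. No member separated the WT groups (6.43% of all genes). Between untreated genotypes, edgeR called 0 of 10 (0.207% of all genes, 0.107% higher and 0.0998% lower), with 0 at an unadjusted p under 0.05 (2.19%) and 0 without overlap (1.52%). Between IMQ-treated genotypes, edgeR called 0 of 10 (0.292%, 0.185% higher and 0.107% lower), with 1, Tlr9, at an unadjusted p under 0.05 (19.9%) and 0 without overlap (1.07%). DESeq2 and limma also called 0 in both. With IMQ in Bmal1 Mye-/-, 4 members had an unadjusted p under 0.05, as 39.3% of genes did. For the difference between genotypes in the response to IMQ, all 3 tools called 0 of 10, edgeR called 0% of all genes, and Tlr2 alone had an unadjusted p under 0.05, as 5.14% of genes did. The median log2 fold change of the members was 0.00 with IMQ in WT and -0.08 in Bmal1 Mye-/-, beside 0.03 and 0.02 for all genes. It was 0.14 between untreated and -0.21 between IMQ-treated genotypes, beside -0.00 and 0.03 for all genes. The comparisons share groups of libraries, so they are not independent of each other.

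**Figure D3:**
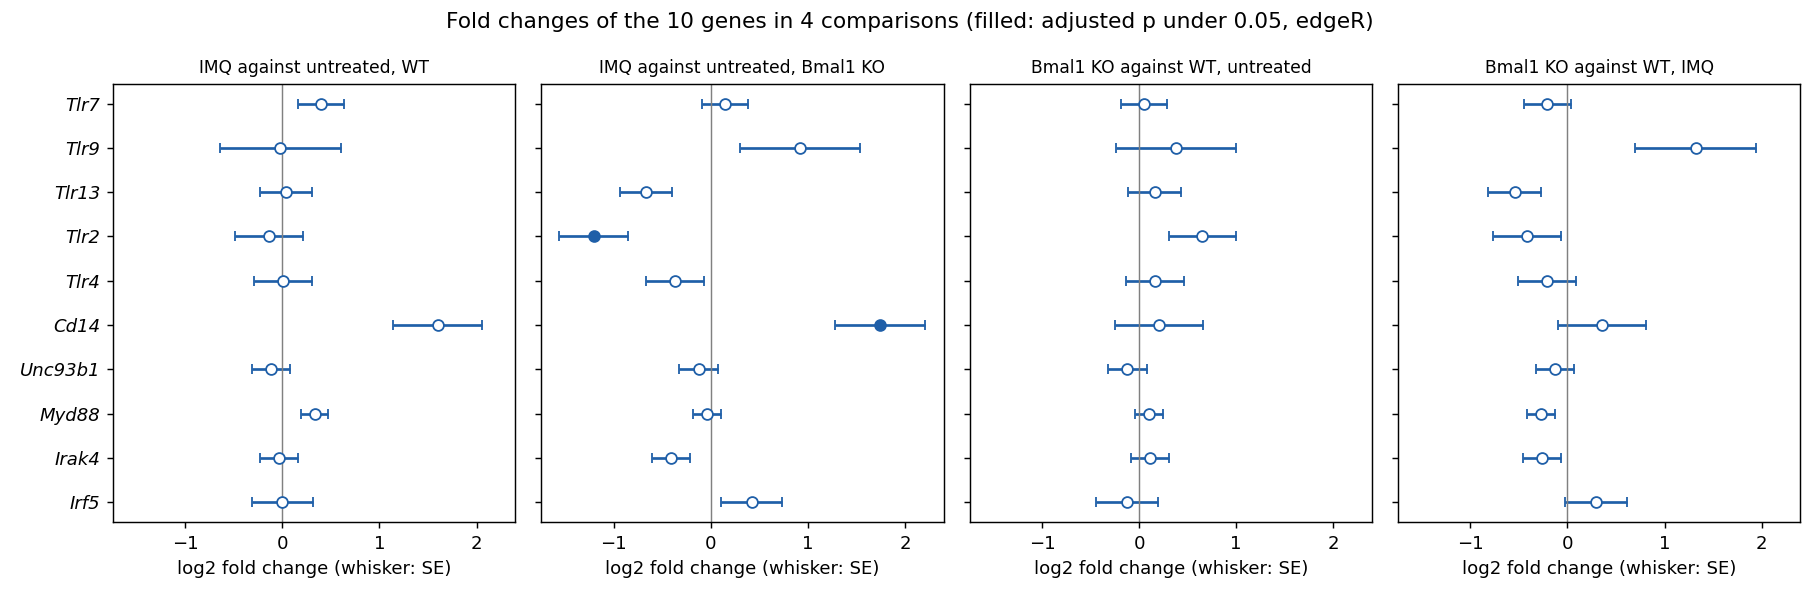
Log2 fold change of each gene with its SE in the 4 comparisons between groups, filled where the adjusted p was under 0.05. Cd14 (1.75) and Tlr2 (-1.21) with IMQ in Bmal1 Mye-/- neutrophils are the filled points, and Cd14 in WT (1.60) lies close to the former.

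The spread between mice was larger with IMQ for most genes. The coefficient of variation of CPM was larger in the IMQ-treated than in the untreated group for 9 of 10 members in WT (median 34.6% against 22.1%) and for 10 of 10 in Bmal1 Mye-/- (41.0% against 12.1%). Of all genes tested, 87.2% in WT (median 31.1% against 14.8%) and 86.9% in Bmal1 Mye-/- (30.6% against 13.5%) also had the larger coefficient with IMQ, so the members are near that background.

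Markers of other cells moved with some of these values. Of 8 monocyte markers, 5 were called higher with IMQ in Bmal1 Mye-/- neutrophils, as were 14.4% of all genes. In WT 0 were (2.34% of all genes), and no marker was at 0 throughout. Between IMQ-treated genotypes, and for the difference in response, 0 of the 8 were called (0.292% and 0% of all genes). Their sum was 808 to 924 CPM in untreated and 974 to 1536 in IMQ-treated WT, without overlap. It was 772 to 990 in untreated and 649 to 2442 in IMQ-treated Bmal1 Mye-/- libraries, which overlapped. The highest, 2442 CPM, was in replicate 1, the library with the highest Tlr9 and Irf5, where Ccr2, a monocyte chemokine receptor, was at 416 CPM against 25.4 to 106 in the rest of its group. Markers of plasmacytoid dendritic cells, which use TLR7 and TLR9, summed to 173 CPM in that library and to 33.2 to 68.3 in the rest of the group. Most of that sum was Irf8 (133 CPM), a gene that monocytes also use, while Siglech, a defining marker, was at or below 0.528 CPM in every library. The part of other cells in the Tlr9 and Irf5 values was not tested.

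For Cd14, which monocytes also express, the IMQ-treated Bmal1 Mye-/- libraries with the most of it, replicates 5 and 3 (299.9 and 286 CPM), had the lowest monocyte sums of their group (649 and 806 CPM). In IMQ-treated WT, replicate 1 had the most Cd14 (263 CPM) and the highest monocyte sum (1536 CPM). Replicates 2 to 5 differed little in that sum (974 to 1004 CPM), while their Cd14 ran from 30.8 CPM in replicate 5 to 226 in replicate 2. The markers of eosinophils, basophils and mast cells summed to 170.5 and 194.1 CPM in Bmal1 Mye-/- replicates 5 and 3 with IMQ, the highest of the 20 libraries. Of these 7 markers, 3 were called higher in Bmal1 Mye-/- than in WT among IMQ-treated mice (0.185% of all genes were), where the sums were 36.5 to 194.1 and 19.8 to 36.0 CPM. With IMQ, 1 was called higher and 1 lower in Bmal1 Mye-/- (14.4% and 9.04% of all genes) and 2 lower in WT (1.6% of all genes). The part of these cells in the Cd14 values was not tested. Without replicate 1, the log2 fold change of Cd14 with IMQ in Bmal1 Mye-/- was 1.91 (SE 0.48, adjusted p = 0.0164), and that of Tlr2 was -1.10 (SE 0.38, adjusted p = 0.0569).

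**Figure D4:**
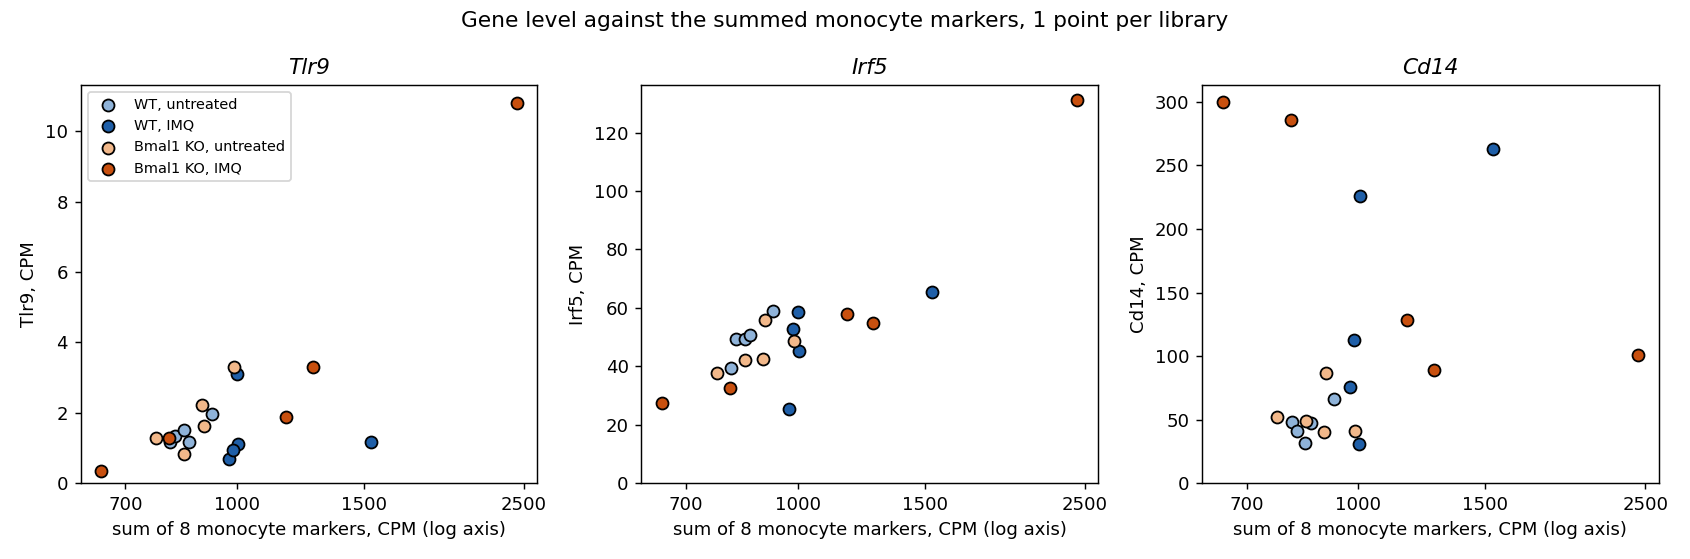
CPM of Tlr9, Irf5 and Cd14 against the summed CPM of 8 monocyte markers (log axis), 1 point per library. The library at 2442 CPM of markers has the highest Tlr9 (10.8) and Irf5 (131) and a Cd14 of 101 CPM, while Cd14 is at 299.9 and 286 CPM in libraries at 649 and 806 CPM of markers and at 263 in one at 1536.

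Some transcripts of neutrophils themselves and of lymphocytes also moved. Csf3r, the receptor of G-CSF, was at 2574 to 3166 CPM in untreated and 476 to 1865 in IMQ-treated Bmal1 Mye-/- libraries, and Cxcr2, a chemokine receptor of mature neutrophils, at 1511 to 1785 and 320 to 1437, both without overlap. In WT these ranges overlapped, at 2243 to 3021 and 409 to 2754 CPM for Csf3r and 1135 to 1771 and 470 to 1995 for Cxcr2. Both genes were chosen after their values were seen. Over the 11 neutrophil markers they come from, the median log2 fold change with IMQ was only -0.14 in Bmal1 Mye-/- and -0.15 in WT. Of the 11 neutrophil markers 1, and of 7 B lineage markers 3, were called lower with IMQ in Bmal1 Mye-/-. Of all genes, 9.04% were. In WT, none of either list was called (3.95% of all genes were). The B lineage sum was 6.43 to 25.7 CPM untreated and 5.31 to 8.29 with IMQ in Bmal1 Mye-/-. In WT it was 9.42 to 24.8 and 4.81 to 9.44 CPM. The median log2 fold change of the B lineage markers with IMQ was -1.53 in both genotypes. Whether any of this has a part in the lower Tlr2, Tlr13 and Irak4 values was not tested.

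Of 69 other genes of the pathway, 66 were tested (Tlr11, Tlr12 and Sarm1 had too few reads). Tlr1, the partner of TLR2 in sensing lipoproteins, was the clearest of them. It was at 1.53, 1.42, 1.41, 1.81 and 1.65 CPM in untreated WT and at 4.62, 5.84, 9.36, 7.22 and 3.40 with IMQ. In Bmal1 Mye-/- neutrophils it was at 3.28, 3.97, 2.79, 2.43 and 4.17 CPM untreated and at 10.2, 15.2, 5.98, 9.14 and 6.66 with IMQ. Neither treated group overlapped with its untreated group, and the untreated genotypes did not overlap either. The rise with IMQ was 3.90-fold in WT (adjusted p = 0.00233) and 2.83-fold in Bmal1 Mye-/- (adjusted p = 0.00460), called in every one of 20 repeats with 1 library left out. The 2.14-fold higher level in Bmal1 Mye-/- among untreated mice had an adjusted p of 0.250 by edgeR over all 4 groups. It passed in 2 of 9 other settings, which were DESeq2 and edgeR on only the groups compared.

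With IMQ in WT, 4 of the 66 passed the threshold, against 3.95% of all genes. Tlr1 and Map3k8, a MAP kinase kinase kinase, rose, and Cnpy3, a chaperone of Toll-like receptors, and Irf4, a transcription factor, fell. Map3k8 went from 22.0 ± 1.89 to 33.5 ± 6.96 CPM, Cnpy3 from 63.7 ± 2.71 to 44.1 ± 6.80 and Irf4 from 7.90 ± 3.46 to 2.06 ± 1.29. The count fell to 1 or 2 without any 1 of the 5 untreated WT libraries and to 1 without WT replicate 1, 2, 3 or 4 with IMQ, and rose to 9 without WT replicate 5 with IMQ. The count over all genes also moved, from 554 with all libraries to between 48 and 1989 without 1 library.

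With IMQ in Bmal1 Mye-/- neutrophils, 16 of the 66 passed, 10 higher and 6 lower. This share is near that of all genes (23.5%, with 14.4% higher and 9.04% lower). Among those that rose, Ap3s1, a subunit of the adaptor that sorts receptors to endosomes, went from 70.3 ± 12.8 to 112.5 ± 14.99 CPM (adjusted p = 0.00664), and Ube2n, a ubiquitin-conjugating enzyme that works with TRAF6, from 21.7 ± 0.727 to 28.4 ± 3.15 (adjusted p = 0.0171). Lbp, which delivers lipopolysaccharide to CD14, went from 132 ± 8.24 to 186 ± 44.1 CPM (adjusted p = 0.0247), Ikbke from 24.0 ± 4.59 to 43.3 ± 14.9 and Rab7b from 1.41 ± 0.414 to 3.49 ± 2.86. Irf8, Ly86, Map3k7 and Ticam2 also rose, and Irf8 is on the list of plasmacytoid markers as well. Among those that fell, Rela, the NF-kB subunit p65, went from 134.6 ± 8.23 to 104 ± 12.9 CPM (adjusted p = 0.0176), and Ly96, which encodes MD-2, the lipopolysaccharide-binding partner of TLR4, from 7.32 ± 1.25 to 3.29 ± 1.35 (adjusted p = 0.0263). Irak2, Tnip1, Cnpy3 and Tlr5 also fell. The count was 7 without Bmal1 Mye-/- replicate 1 with IMQ (Ap3s1, Cnpy3, Lbp, Map3k8, Rela, Tlr1 and Ube2n), 10 without replicate 5 with IMQ, and 4 to 10 without any 1 of the 5 untreated Bmal1 Mye-/- libraries. With the replicate number as a block it was 11, in which Irf8, Ly86, Map3k7, Ticam2, Rab7b and Cnpy3 lost their call and Tlr6 gained one. Over all genes, 3292 were called with all libraries, 1612 to 4499 without 1 library and 3114 with the block.

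In untreated mice, edgeR called 0 of the 66 between genotypes, and 2 had an unadjusted p under 0.05, against 2.19% of all genes. DESeq2, and edgeR on only the groups compared, called 1 (Tlr1). Among IMQ-treated mice, edgeR called 0 of the 66 between genotypes, and 22 had an unadjusted p under 0.05, against 19.9% of all genes. There DESeq2 called 4 of the 66 (Ap3s1, Ly86, Ticam2 and Traf6) and 313 of all genes, and limma called 0 of the 66. The second of these comparisons depended on single libraries. Without WT replicate 3 with IMQ, edgeR called 20 of the 66 and 3129 of all genes, against 41 with all libraries, and among the 10 members Tlr13 alone. Without Bmal1 Mye-/- replicate 4 with IMQ it called 3 of the 66 and 280 of all genes.

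Of the other endosomal genes looked at, Tlr8, which lies beside Tlr7 on chrX (chrX:167242696-167264329) and senses RNA, was at 37.1 to 71.6 CPM in untreated WT, 52.5 to 71.9 in untreated Bmal1 Mye-/-, 7.87 to 73.8 in IMQ-treated WT and 3.95 to 55.1 in IMQ-treated Bmal1 Mye-/- neutrophils. With IMQ, 3 of 5 WT and 4 of 5 Bmal1 Mye-/- libraries lay below all untreated ones of their genotype, and the log2 fold changes were -0.67 (SE 0.57, adjusted p = 0.526) and -1.40 (SE 0.58, adjusted p = 0.0842). In Bmal1 Mye-/-, the fall of Tlr8 passed the threshold in 1 of 20 repeats without 1 library and in 2 of 9 other settings. Its lowest value was -1.96, without Bmal1 Mye-/- replicate 2 with IMQ. Tlr3, the receptor of double-stranded RNA, was near absent, with 1 to 29 reads per library. Slc15a4, an endosomal transporter that TLR7 and TLR9 signaling needs, was at 24.1 to 31.0 CPM untreated and 15.6 to 36.7 with IMQ in the 2 genotypes, with no call. Irf7, a transcription factor of the interferon response, was at 88.8 to 160 CPM in the untreated libraries. With IMQ it was at 804, 168, 148, 139 and 132 CPM in WT and at 33.0, 81.6, 94.0, 683 and 77.6 in Bmal1 Mye-/-, so that 1 library in each group stood far above the rest and 4 of 5 in Bmal1 Mye-/- lay below all untreated ones of that genotype. Its log2 fold change between IMQ-treated genotypes was -0.52 (SE 0.64, adjusted p = 0.604), and it was -1.94 without Bmal1 Mye-/- replicate 4, which passed the threshold (adjusted p = 0.0457), and 0.41 without WT replicate 1.

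Within groups, some of the members varied together. They were picked out from the correlations given here, and no background of other gene pairs was computed. Over 20 libraries, the Pearson correlation of deviations from the group mean (log2 CPM, prior count 2) had a median of 0.34 over the 45 pairs, of which 33 were positive, and all of them share the scaling of each library. It was 0.93 for Tlr4 and Irak4, 0.93 for Tlr2 and Tlr4, 0.92 for Tlr13 and Irak4 and 0.82 for Tlr9 and Irf5, a pair whose highest values fell in the same library. Among the endosomal receptors it was 0.41 for Tlr7 and Tlr13, -0.35 for Tlr7 and Tlr9 and -0.01 for Tlr9 and Tlr13, and Cd14 had -0.54 to Tlr9 and -0.23 to Tlr2. The genes whose deviations were most like those of a member were Klf13 for Tlr7 (0.95), Arl5c (0.95) and Cx3cr1 (0.95), a monocyte marker, for Tlr9, Card6 for Tlr13 (0.98), Tmem132a for Tlr2 (0.96) and Ipmk for Tlr4 (0.97). They were Mest for Cd14 (0.90), Usf1 for Unc93b1 (0.95), Lyrm2 for Myd88 (0.96), Rbm5 for Irak4 (0.98) and Slc29a3 for Irf5 (0.92).

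**Figure D5:**
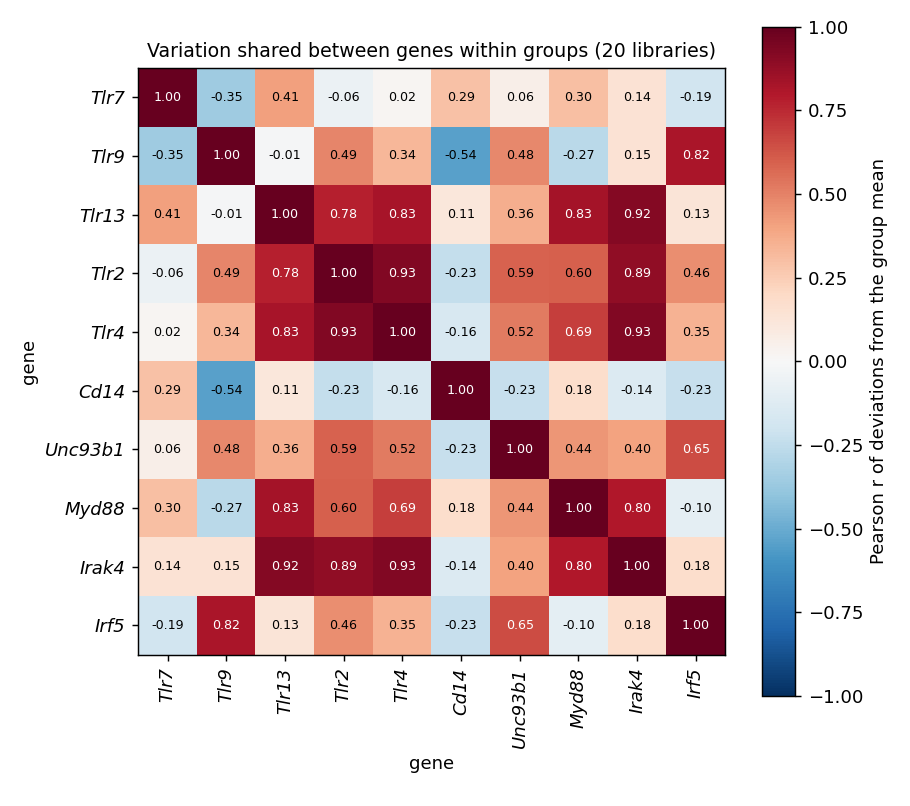
Pearson correlation, over 20 libraries, of the deviations of log2 CPM from the group mean for each pair of the 10 genes, from -1 (blue) to 1 (red). Tlr13, Tlr2, Tlr4, Myd88 and Irak4, picked out from these same values, had correlations between 0.60 and 0.93 with each other.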

How the data were processed

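RNA-seq libraries (poly(A) selected, NEBNext Ultra II) were made from bone marrow neutrophils of 20 mice. The paper's methods name more than 1 instrument as alternatives. Which of them sequenced each library, and whether more than 1 was used for these 20, is not recorded in the sources used here. The authors deposited whole-number counts of reads per gene for each library. The submitters' processing notes name bcl2fastq, STAR 2.7.8a, HTSeq 2.0.1 and mm10, whereas the paper's methods describe an alignment with TopHat and RPKM values. The annotation and the strand setting are not given in the sources used here, so reads of overlapping or antisense genes cannot be told apart. A joined table held the same counts and was not used. Reads on no feature, 51.9% to 57.8% of a library's total, were left out.

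Groups came from the genotype and treatment labels. Counts were filtered with filterByExpr, which left 14030 genes, scaled by TMM and fitted with the quasi-likelihood test of edgeR 4.0.16 (R 4.3.3) over all 4 groups, and p-values were adjusted by Benjamini-Hochberg over all genes tested, with a threshold of 0.05. DESeq2 1.42.0, limma 3.58.1 on log2(CPM + 0.1) and other scalings, filters and fits, and leaving out each library, were alternatives. In simulated counts of the IMQ comparison in WT (14030 genes), edgeR recovered 55 of 100 genes changed 2-fold and 92 of 100 changed 4-fold. The simulation gave each gene the same dispersion in all 4 groups and changed only genes above a minimum mean level. In the data most genes spread more with IMQ, so these rates hold for equal spread only. None of 40 pairs of libraries of a group agreed within sampling noise (chi-square per degree of freedom 16.9 to 731). P-values rest on the spread between mice, estimated for each gene over all 4 groups together. Because most genes spread more with IMQ, the tests between untreated groups also carry the spread of the IMQ-treated mice. Replicate numbers come from the labels, which tie them to nothing shared. The deviations of same-numbered libraries from their group means correlated at 0.128 to 0.426 between untreated and IMQ-treated Bmal1 Mye-/-, all above 0.1, and at 0.0728 to 0.384 in WT. Across genotypes, these correlations had mixed signs, at -0.441 to 0.206 in untreated and -0.497 to 0.343 in IMQ-treated mice.

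All 10 members were described, with Tlr8, Tlr3, Slc15a4 and Irf7. Of the other pathway genes, up to 8 with the smallest adjusted p in a comparison were named with values and the rest by name alone. For each member, the genes with the highest correlation of deviations were listed. The members, lists and rules were chosen with earlier results of these data known. Exon lengths and gene coordinates are from GENCODE on GRCm38.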

Additional observations from a re-analysis of the deposited data

Results flagged for a closer look

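Among 56 sets of 5 libraries (the 10 members and the 4 further endosomal genes in each group), 6 held a value far from the others by Dixon's test, and chance flags about 1 in 20 groups, or 2.8. Tlr7 was at 36.9 CPM in untreated Bmal1 Mye-/- replicate 4, with the next library at 28.0, and Cd14 was at 87.1 CPM in the same library, with the next at 52.2. Tlr9 was at 3.10 CPM in IMQ-treated WT replicate 5, with the next at 1.19, and at 10.8 CPM in IMQ-treated Bmal1 Mye-/- replicate 1, with the next at 3.31. Irf7 was at 804 CPM in IMQ-treated WT replicate 1, with the next at 168, and at 683 CPM in IMQ-treated Bmal1 Mye-/- replicate 4, with the next at 94.0.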

How the results depend on the processing

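Of 440 values recomputed for the members under 9 other settings, 416 kept their direction and side of the threshold, 2 newly passed it and 22 changed sign. Cd14 with IMQ in Bmal1 Mye-/- passed the threshold in all 9 settings and all 20 repeats without 1 library, and Tlr2 in 9 and 17. In WT, DESeq2 called 1 member, Cd14. The cause was not tested. The number of members called ranged from 0 to 1 in WT with IMQ, from 1 to 3 in Bmal1 Mye-/- with IMQ and from 0 to 1 between IMQ-treated genotypes when 1 library was left out.

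All sign changes were of log2 fold changes with adjusted p over 0.05. With IMQ in WT, scaling by library size alone gave -0.058 for Tlr13, -0.092 for Tlr4 and -0.10 for Irf5. Limma gave -0.10, -0.17 and -0.12, no filter -0.0055 (Tlr4) and -0.011 (Irf5), a minimum of 10 counts -0.025 and -0.028, and fitting only the groups compared -0.0025 and -0.0091. Library size alone gave 0.050 for Myd88 with IMQ in Bmal1 Mye-/- (limma 0.044), 0.075 for Unc93b1 between IMQ-treated genotypes and 0.18 for its difference in response. For this last value limma gave 0.10, no filter 0.020 and a minimum of 10 counts 0.0028. For Tlr4 between IMQ-treated genotypes limma gave 0.029. Library size alone moved the median of all genes to 0.16 with IMQ in Bmal1 Mye-/-, 0.23 between IMQ-treated genotypes and 0.20 for the difference in response.

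With the replicate number as a block, no member's call changed (0 called in WT and 2 in Bmal1 Mye-/- with IMQ), Tlr4 in WT was at -0.034 and Irf5 at -0.086, and pathway genes called went from 4 to 1 in WT and from 16 to 11 in Bmal1 Mye-/-.

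Leaving out 1 library moved the following across 0. With IMQ in WT, Tlr9 ranged from -0.54 to 0.15, Tlr13 from -0.16 to 0.23, Tlr2 from -0.42 to 0.079, Tlr4 from -0.25 to 0.19, Irak4 from -0.16 to 0.10 and Irf5 from -0.12 to 0.16. With IMQ in Bmal1 Mye-/-, Tlr7 ranged from -0.062 to 0.29, Tlr9 from -0.13 to 1.23, Unc93b1 from -0.35 to 0.031, Myd88 from -0.14 to 0.093 and Irf5 from -0.060 to 0.61. Between untreated genotypes Tlr7 ranged from -0.094 to 0.11 and Cd14 from -0.038 to 0.34. Between IMQ-treated genotypes Tlr4 ranged from -0.39 to 0.051, Unc93b1 from -0.37 to 0.027 and Irf5 from -0.19 to 0.48. For the difference in response, Tlr9 ranged from -0.11 to 1.47, Cd14 from -0.11 to 0.53, Unc93b1 from -0.23 to 0.15 and Irf5 from -0.054 to 0.61.

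Counts over other genes moved more. All genes called with IMQ in WT were 554, with 1480 by DESeq2, 326 with no filter, 186 with only the groups compared, 190 with the block and 48 to 1989 without 1 library. In Bmal1 Mye-/- they were 3292, and 1612 to 4499 without 1 library. Between untreated genotypes they were 29, and 59 with only the groups compared. Between IMQ-treated genotypes they were 41, with 313 by DESeq2, 16 with only the groups compared and 20 to 3129 without 1 library. Pathway genes called were 2 in WT by library size alone or with only the groups compared, and 10 in Bmal1 Mye-/- in the latter. At 25 to 832 reads per library, Tlr9 is the member whose level depth limits most.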
